A study of Mus musculus with 10 samples.

Results

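Rnpep, Ptprv, Ptpn7 and Ctse are 4 of the 9690 genes measured, and lie within 3.65 Mb of mouse chromosome 1. They were picked with measured values in view: Rnpep, Ptprv and Ctse are genes of the window of 6 Mb that starts at 130 Mb whose level differed between LSD1-knockout and wild-type B cells, and Ptpn7 was added because its annotated extent overlaps that of Ptprv. Each of the 4 was found in the table by its Entrez identifier and each passed the filter on low values. The knockout differences of these genes are therefore given as a description, without a test. Ptpn7 had the smallest of them, and several genes of the window that were not picked differed as much. Fcamr was foremost among those in FoB on both scales and in MZB after rescaling, while per cell in MZB Csrp1 exceeded it (ratios of 2.31 for Csrp1 and 0.439 for Fcamr).

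RNA was sequenced from B cells of the spleen, sorted without stimulation from female C57BL/6J mice at 50000 cells per library. The groups were 2 libraries of LSD1-knockout marginal zone B cells (MZB), 3 of wild-type MZB, 3 of LSD1-knockout follicular B cells (FoB) and 2 of wild-type FoB. MZB were gated as B220+, CD21 high, CD1d+ and CD23-, and FoB by the CD23+ gate; neither the age of the mice nor the driver of the deletion is given in the sources used here. Whether each library came from its own animal is not labelled, so that p-values reflect the spread among these libraries alone, and that spread may be technical. Values are mRNA molecules per cell as deposited. Fewer cells of a type and less RNA per cell cannot be told apart in such bulk samples.

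LSD1, the product of Kdm1a, is a histone demethylase that takes part in silencing and activating genes during B cell differentiation. MZB are innate-like cells at the border of the splenic white pulp that answer blood-borne antigen quickly, and FoB recirculate through the follicles and take part in T cell-dependent responses. The genes described here encode proteins of unrelated function. Rnpep encodes aminopeptidase B, a zinc enzyme that removes basic residues from the amino end of peptides. Ptprv encodes a receptor-type tyrosine phosphatase of mouse, studied in osteoblasts and testis, whose human counterpart is a pseudogene. Ptpn7 encodes the haematopoietic tyrosine phosphatase, which binds and dephosphorylates the MAP kinases ERK and p38. Ctse encodes cathepsin E, an aspartic protease of endosomal compartments that is known from antigen-presenting cells and stomach.

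In RefSeq on GRCm38.p6, the assembly of mm10, Ctse (Entrez 13034) occupies chromosome 1 from 131638314 to 131675507 on the plus strand. Ptprv (Entrez 13924) lies from 135108498 to 135132575 on the minus strand and is annotated there as a transcribed pseudogene. Ptpn7 (Entrez 320139) lies from 135131838 to 135145328 on the plus strand, and Rnpep (Entrez 215615) from 135262699 to 135284423 on the minus strand. Ptprv and Ptpn7 point away from each other. Their RefSeq extents overlap by 738 bases, whereas their GENCODE M21 extents are 105 bases apart and share 0 exon bases. The library kit keeps strand, but no source used here gives the strand setting of the counting, so reads in the RefSeq overlap may be split between both genes in an unknown way. The GENCODE start of Rnpep lies 151.5 kb from that of Ptprv, and the start of Ctse lies 3.49 Mb from it. The stretch between the Ptprv and Ptpn7 starts is printed because these neighbours differed in their response, and the stretch before the Rnpep start of the RefSeq promoter table, which lies inside the RefSeq extent of the gene, because Rnpep went the other way. The first is chr1:135132546-135132729 on the plus strand, with the 124 bases between the RefSeq start of Ptprv and the first Ptpn7 start of the RefSeq promoter table in capitals, and the second is chr1:135284085-135284264 on the minus strand, with CG dinucleotides in capitals (both RefSeq, GRCm38.p6).
Ptprv-Ptpn7 start region: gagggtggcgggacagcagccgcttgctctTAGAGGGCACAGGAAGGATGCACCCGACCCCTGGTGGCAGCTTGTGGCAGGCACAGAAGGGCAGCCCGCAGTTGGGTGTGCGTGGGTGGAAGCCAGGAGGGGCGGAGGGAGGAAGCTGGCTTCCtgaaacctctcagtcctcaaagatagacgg
Rnpep promoter: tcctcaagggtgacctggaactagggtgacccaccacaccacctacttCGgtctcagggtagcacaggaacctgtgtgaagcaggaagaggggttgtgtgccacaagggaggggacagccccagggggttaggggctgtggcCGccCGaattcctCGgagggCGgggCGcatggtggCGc

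The promoter table held windows of 300 bases for Rnpep and for 2 starts of Ptpn7. The Rnpep window held 14 CG dinucleotides at a GC content of 62.0%, the first Ptpn7 window held 10 at 63.3%, and the second held 7 at 59.0%, against a median of 7 over 32851 mouse promoters. Observed over expected CG was 0.49 for Rnpep and 0.35 and 0.27 for the Ptpn7 windows, against a median of 0.38. The letters GGGCGG (the GC box, searched on both strands) were found 2 times in the Rnpep window and 1 time in each Ptpn7 window, and 35.7% of promoters held them. CACGTG (the E-box, in 7.15% of promoters), GGAAGT (the ETS core, in 23.8%) and TATAAA (the TATA box, in 13.6%) were found 0 times in these windows on either strand. These matches describe the letters of the windows only.

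Whole reads could be worked back from the values, and the libraries held 4161051 to 6711847 reads. The median gene of knockout MZB exceeded that of wild-type MZB by 0.32 (log2), so each difference is given per cell and also after rescaling to a common level, where it is relative to the other genes. Kdm1a, the targeted gene, stood at 5.66 ± 0.401 molecules per cell in knockout MZB and 7.54 ± 1.05 in wild-type MZB (SD, n = 2 and 3), and at 2.11 ± 0.220 in knockout FoB and 4.96 ± 0.881 in wild-type FoB (SD, n = 3 and 2). Per cell its log2 difference did not pass in MZB (−0.39, limma, adjusted p = 0.118) and passed in FoB (−1.12, 4.31e-05). After rescaling it passed in both, at −0.69 (limma, adjusted p = 0.000463) and −1.10 (2.5e-05). Of the marker lists, the 7 MZB genes summed to 422.1 to 515.6 molecules in MZB and 56.28 to 76.88 in FoB, as labelled. Of 8 macrophage and monocyte markers, 3 were in the table (Cd68, Itgam and Ly6c2), and they summed to 7.60 to 10.38 in knockout MZB, 2.65 to 4.43 in wild-type MZB, 3.54 to 4.11 in knockout FoB and 1.12 to 1.92 in wild-type FoB. The 5 measured follicular markers summed to 133.6 to 153.1 in knockout MZB and 67.48 to 98.51 in wild-type MZB. The 2 measured dendritic cell markers, Flt3 and Cst3, summed to 19.55 to 26.44 in knockout MZB and 10.59 to 13.94 in wild-type MZB. Per cell and after rescaling, 2 of 2 were higher in knockout MZB and 1 of 2 in knockout FoB (limma, adjusted p under 0.05). Of all 9690 genes, 1288 were higher in knockout MZB per cell and 326 after rescaling, and 40 and 44 in knockout FoB. The single measured markers of T cells (Lck), platelets (Itgb3) and endothelium (Pecam1) also passed as higher in knockout MZB on both scales. They stood at 7.39 to 8.09, 2.10 to 2.40 and 33.95 to 37.32 molecules in knockout MZB. The wild-type MZB libraries held 3.80 to 4.54, 0.869 to 1.06 and 19.16 to 26.0. The part of these lists in the differences below was not tested. For Rnpep, Ptprv and Ctse, wild-type MZB library 1 lay nearer the knockout than the other wild-type MZB libraries did. Of the 2 wild-type FoB libraries, library 1 lay nearer the knockout, but with 2 libraries it cannot be told which of them is unusual. Results are therefore given with and without the first wild-type libraries.

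Rnpep was lower in the knockout of both cell types. It stood at 2.33 and 2.21 molecules per cell in the knockout MZB libraries, against 3.84, 8.64 and 7.64 in the wild-type MZB libraries. In FoB it stood at 0.558, 0.380 and 0.381 in the knockout libraries, against 1.87 and 2.27 in the wild-type ones. In both cell types the knockout libraries lay below the wild-type ones without overlap, and wild-type MZB library 1 lay closest to the knockout. The ratio of knockout to wild type was 0.338 in MZB and 0.213 in FoB, or log2 differences of −1.37 (SE 0.20) and −1.68 (SE 0.20), and −1.62 and −1.78 (log2) after rescaling. Without the first wild-type libraries these differences were −1.72 in MZB and −1.80 in FoB per cell. The values rest on 90 and 93 reads in the knockout MZB libraries and on 29 to 37 reads in the knockout FoB libraries.

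Ptprv was higher in the knockout of both cell types, and showed the largest difference of the 4 genes in MZB. It stood at 9.17 and 9.31 molecules per cell in the knockout MZB libraries, against 2.83, 0.835 and 1.09 in the wild-type MZB libraries. The knockout FoB libraries held 2.53, 2.35 and 1.98, against 1.12 and 0.165 in the wild-type FoB libraries. The groups did not overlap in either cell type, while the 2 wild-type FoB libraries lay far apart, at 237 and 37 reads. The ratio of knockout to wild type was 5.82 in MZB and 3.55 in FoB, or log2 differences of 2.48 (SE 0.24) and 1.66 (SE 0.24), and 2.09 and 1.88 (log2) after rescaling. Without the first wild-type libraries the ratios were 9.60 in MZB and 13.8 in FoB, where the FoB ratio rests on 1 wild-type library. Leaving out wild-type FoB library 1 gave a FoB log2 difference of 2.47, and leaving out library 2 gave 0.86.

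Ptpn7, whose first listed promoter start lies beyond those 124 bases on the other strand, differed far less. It stood at 7.99 and 10.72 molecules per cell in the knockout MZB libraries, against 5.04, 7.15 and 6.36 in the wild-type MZB libraries, a log2 difference of 0.57 (SE 0.19) that became 0.25 (SE 0.09) after rescaling. In FoB the libraries overlapped, with 3.64, 4.39 and 3.23 in the knockout and 4.16 and 3.09 in the wild type, a log2 difference of 0.05 (SE 0.19). In wild-type MZB library 1, where Ptprv was higher than in the other wild-type MZB libraries, Ptpn7 had the lowest MZB value. The rescaled ratio of knockout to wild type in MZB was 4.34 for Ptprv and 1.21 for Ptpn7, and in FoB 3.99 for Ptprv and 1.07 for Ptpn7.

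Ctse had the highest mean level of the 4 genes in each group of libraries, although not in every library, and was higher in the knockout of both cell types. It stood at 19.1 and 22.8 molecules per cell in the knockout MZB libraries, against 8.15, 6.63 and 6.57 in the wild-type MZB libraries. In FoB it stood at 12.7, 14.6 and 10.8 in the knockout libraries, against 8.84 and 2.69 in the wild-type ones. The groups did not overlap, and the highest wild-type value of each cell type was that of library 1. The ratio was 2.95 in MZB and 2.21 in FoB, or log2 differences of 1.52 (SE 0.22) and 1.31 (SE 0.22), and 1.18 and 1.38 (log2) after rescaling. Without the first wild-type libraries the log2 difference was 1.62 in MZB and 2.11 in FoB, so that the FoB ratio was 4.73 without wild-type FoB library 1, against 2.21 with it. Without wild-type FoB library 2 the FoB log2 difference of Ctse was 0.50.

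**Figure D1:**
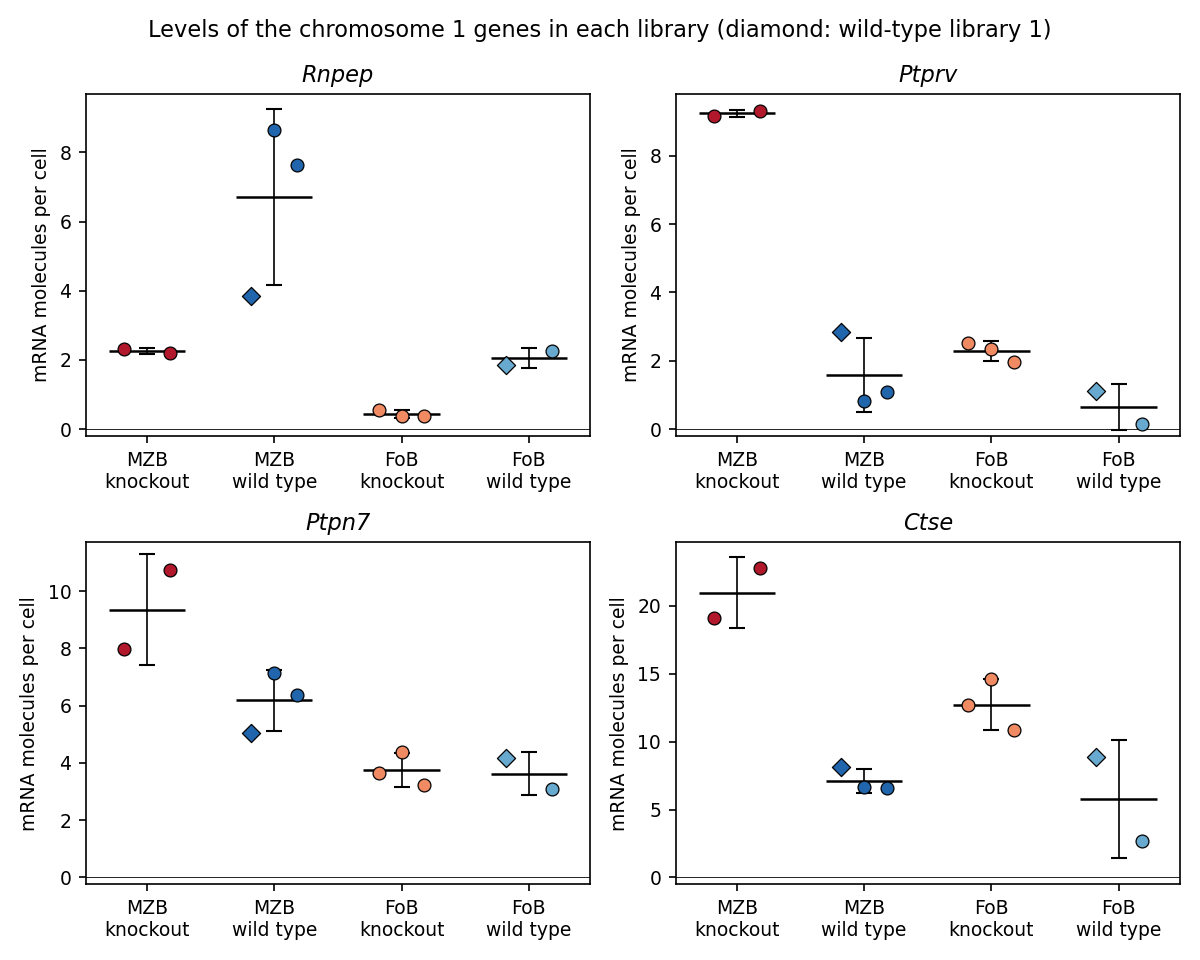
Levels of the 4 genes in mRNA molecules per cell (vertical axes) in each library, by group. Points are libraries, diamonds are wild-type library 1, lines and bars are the mean and SD; Rnpep is lower and Ptprv and Ctse are higher in knockout than in wild-type libraries of both cell types, and the Ptpn7 libraries of FoB overlap.

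In MZB, 4 of the 4 genes lay past the threshold per cell (limma, adjusted p under 0.05), where 14.0% of all genes did, and 3 of 4 after rescaling, where 5.26% did. In FoB, 3 of 4 lay past it per cell, where 0.712% of all genes did, and 1 of 4, Rnpep, after rescaling, where 0.588% did. Without the first wild-type libraries, Rnpep, Ptprv and Ctse lay past it in each of these cases, 3 of 4, where 4.39% of all genes did in MZB per cell, 1.29% in MZB rescaled, 0.258% in FoB per cell and 0.206% in FoB rescaled. Since the genes were picked from these contrasts, nothing follows from these counts. The difference between the knockout effects, MZB minus FoB, was 0.31 (SE 0.28) for Rnpep, 0.82 (SE 0.33) for Ptprv, 0.53 (SE 0.28) for Ptpn7 and 0.21 (SE 0.32) for Ctse on the log2 scale per cell. After rescaling these became 0.16 (SE 0.33), 0.20 (SE 0.68), 0.15 (SE 0.12) and −0.19 (SE 0.42), in the same order.

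Ordered by their mean level per cell, the groups fell into 1 order for Ptprv and Ctse and into other orders for Rnpep and Ptpn7. For Rnpep, wild-type MZB came highest, followed by knockout MZB and wild-type FoB, whose libraries overlapped at 2.21 to 2.33 and 1.87 to 2.27, and by knockout FoB at 0.440 ± 0.103. For Ptprv, knockout MZB came first at 9.24 ± 0.0994, and knockout FoB at 2.29 ± 0.284 overlapped with wild-type MZB at 1.59 ± 1.09, which overlapped with wild-type FoB at 0.644 ± 0.677. For Ptpn7, knockout MZB at 9.36 ± 1.93 lay above wild-type MZB at 6.18 ± 1.06, and knockout FoB at 3.75 ± 0.590 overlapped with wild-type FoB at 3.63 ± 0.758. For Ctse, the order was knockout MZB at 21.0 ± 2.61, knockout FoB at 12.7 ± 1.89, and wild-type MZB at 7.12 ± 0.895, which overlapped with wild-type FoB at 5.76 ± 4.34 (SD in each case, over the 2 or 3 libraries of the group).

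Between cell types of the same genotype, the genes were not picked and were tested, although with libraries that also enter the knockout contrasts. Per cell, 4 of the 4 passed as higher in MZB in each genotype, as most genes did: 84.2% of all genes were higher in wild-type MZB and 97.3% in knockout MZB. After rescaling, 1 of the 4, Rnpep, passed in each genotype, where 25.0% of all genes were higher in wild-type MZB and 18.2% in knockout MZB. The excess of Rnpep in wild-type MZB over FoB was 1.496 on the log2 scale (SE 0.20, limma, adjusted p = 5.26e-10), and 0.68 after rescaling (adjusted p = 0.0302). The rescaled wild-type libraries overlapped, with MZB library 1 at 3.40 and FoB library 2 at 3.57. In knockout cells Rnpep was higher in MZB by 1.80 (limma, adjusted p = 4.03e-13), and by 0.84 after rescaling (adjusted p = 0.0159). Over all libraries Rnpep was thus the 1 of the 4 genes past the threshold on both scales.

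The cell type differences of the other 3 genes depended on the scale. Ptprv was higher in wild-type MZB by 1.07 per cell (limma, adjusted p = 4.44e-05), with libraries that overlapped, and by 0.51 after rescaling (adjusted p = 0.404). Without wild-type FoB library 2 the per-cell difference of Ptprv was 0.26 (limma, adjusted p = 0.396). In knockout cells Ptprv was higher in MZB by 1.89 per cell (limma, adjusted p = 2.67e-11) and by 0.71 after rescaling (adjusted p = 0.277). Without the first wild-type libraries Ptprv did pass after rescaling, at 0.80 in wild type (limma, adjusted p = 0.0103) and 0.71 in knockout cells (adjusted p = 0.00373). Ptpn7 was higher in wild-type MZB by 0.72 per cell (limma, adjusted p = 0.000577), with a difference of −0.10 after rescaling (adjusted p = 0.329), and in knockout MZB by 1.25 (limma, adjusted p = 1.49e-08), with 0.05 after rescaling (adjusted p = 0.691). Ctse was higher in wild-type MZB by 0.50 per cell (limma, adjusted p = 0.0331), but had a difference of 0.40 without wild-type MZB library 1 (adjusted p = 0.108) and of −0.31 without wild-type FoB library 2 (adjusted p = 0.245). In knockout cells Ctse was higher in MZB by 0.71 per cell (limma, adjusted p = 0.00196), with −0.53 after rescaling (adjusted p = 0.195), which passed as lower in MZB without the first wild-type libraries (adjusted p = 0.00111). The log2 differences between knockout MZB and knockout FoB are the same in that setting, where the spread is estimated over fewer libraries.

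Wild-type library 1 of MZB and wild-type library 1 of FoB both lay between the other wild-type libraries and the knockout libraries for Rnpep, Ptprv and Ctse. On the rescaled scale, where 0% is the mean of the other wild-type libraries and 100% the knockout mean, library 1 of MZB lay at 53.8% for Rnpep, 37.0% for Ptprv and 31.8% for Ctse. Library 1 of FoB lay at 42.1% for Rnpep, 37.4% for Ptprv and 48.3% for Ctse, measured from 1 other wild-type library. Fcamr, which encodes an Fc receptor of IgA and IgM and starts at 130.78 Mb of the same chromosome, lay at 42.4% in MZB and 50.6% in FoB. Kdm1a in the same libraries lay at 5.2% and −4.3%, near the other wild-type libraries on this scale. Per cell the places shifted, to 73.2% in MZB and 22.0% in FoB for Rnpep, 22.6% and 45.1% for Ptprv, 10.8% and 61.3% for Ctse, and 68.4% and 32.8% for Fcamr. Kdm1a per cell lay at 71.5% in MZB and −55.9% in FoB, so that its nearness to the other wild-type libraries depends on rescaling. For Ptpn7 the rescaled values were −36.3% and 62.8% of a small difference.

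The rescaled place was then looked up for other genes, by a rule chosen after these values had been seen. Leaving out the first wild-type libraries, 10 genes with a mean of at least 1 molecule per cell differed by at least 2-fold in the same direction in both knockouts after rescaling. In 4 of the 10, library 1 lay between 25 and 75% of the way in both cell types, and these were Rnpep, Ptprv, Ctse and Fcamr, all from the window. The places of these 4 had been seen before the rule was set, and Rnpep, Ptprv and Ctse were picked for their knockout differences. Nothing therefore follows from their count under this rule or the 1.5-fold rule below. In FoB the place is measured from 1 other wild-type library. Per cell, 1 of these 4, Fcamr, lay between 25 and 75% in both cell types, and the others fell outside in 1 cell type each. The 6 genes outside the window lay at −15.2 to 15.5% in MZB and at −59.9 to 17.8% in FoB after rescaling, and at −16.6 to 35.6% in MZB and −141.7 to 23.5% in FoB per cell. Among them was Rgs18, a regulator of G-protein signalling at 144.75 Mb of chromosome 1, at 8.5% in MZB and −6.1% in FoB after rescaling. With a 1.5-fold rule there were 44 genes, of which the same 4 lay between 25 and 75% in both cell types. The 40 outside the window had rescaled medians of −3.0% in MZB and −4.1% in FoB. Their rescaled places spread widely, from −6185.3 to 36.9% in MZB and from −91.7 to 114.5% in FoB. Some of the 40 thus lay further towards the knockout in FoB than those 4 did. Per cell, 1 of those 4 and 2 of those 40 lay between 25 and 75% in both cell types. The labels share no more than the number 1 between these libraries. The labels state neither whether they come from 1 animal nor the genotype of any mouse at this stretch of chromosome 1, and the part of either in the knockout differences of these genes was not tested.

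**Figure D2:**
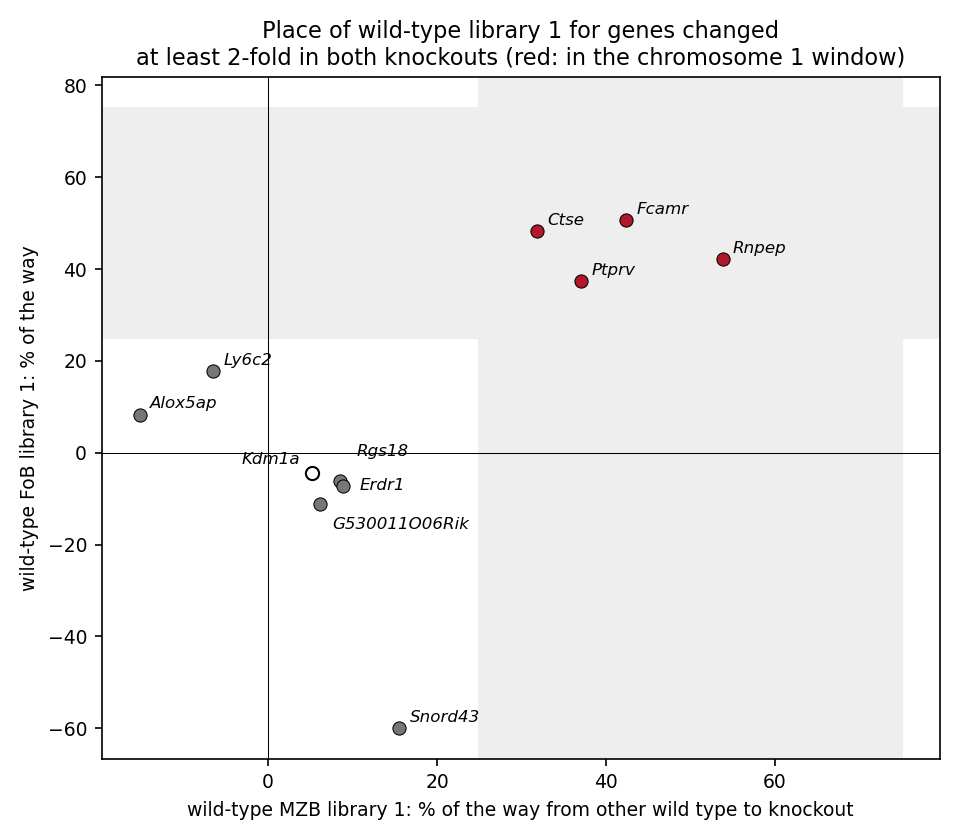
Place of wild-type library 1 of MZB (horizontal axis) and of FoB (vertical axis) for the 10 genes that differed at least 2-fold in both knockouts, in % of the way from the other wild-type libraries (0) to the knockout mean (100), rescaled values. Grey bands mark 25 to 75%, bounds chosen after the places of the red genes had been seen. Rnpep, Ptprv, Ctse and Fcamr (red) lie where both bands cross, and the 6 genes outside the window (grey) and Kdm1a (open circle) do not.

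Plotted against each other, Rnpep and Ctse ran in opposite directions over the libraries. After rescaling, Rnpep stood at 1.51 and 1.25 where Ctse stood at 12.4 and 12.9 in knockout MZB, and Rnpep at 5.88 and 5.63 where Ctse stood at 4.51 and 4.85 in wild-type MZB libraries 2 and 3. Wild-type MZB library 1 had 3.40 for Rnpep and 7.22 for Ctse, between these. In FoB the knockout libraries had 0.499 to 0.824 for Rnpep and 17.3 to 19.2 for Ctse, wild-type library 1 had 2.34 and 11.1, and wild-type library 2 had 3.57 and 4.24. Ptpn7, by contrast, stayed between 4.47 and 6.09 on this scale in all 10 libraries, while Ptprv ran from 0.261 to 5.94.

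**Figure D3:**
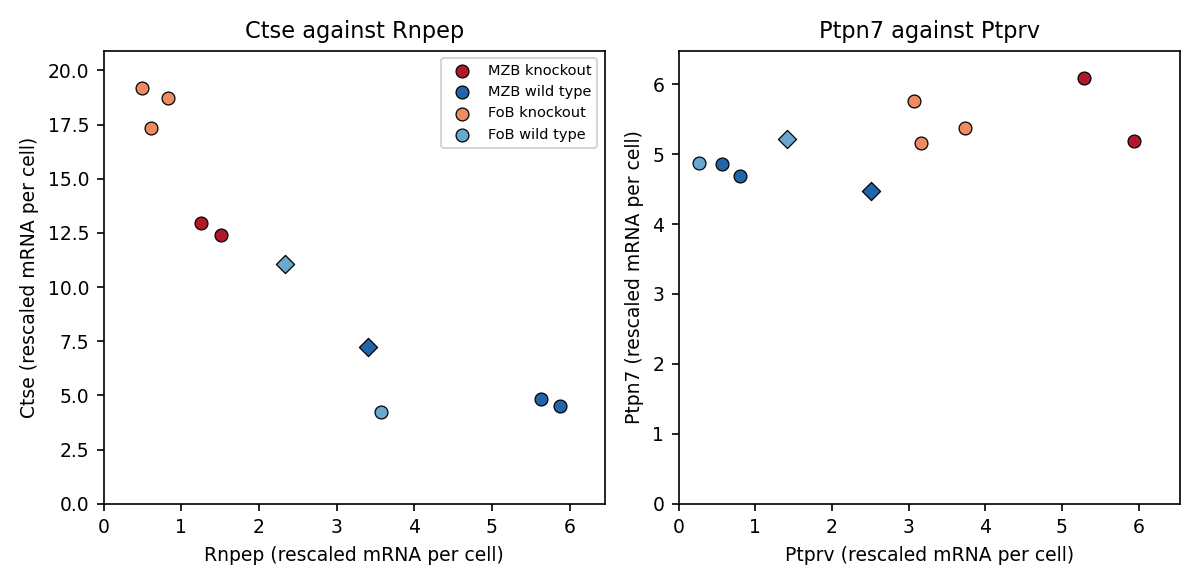
Rescaled levels (mRNA per cell, libraries brought to a common level) of Ctse against Rnpep (left) and of Ptpn7 against Ptprv (right). Each point is a library, coloured by group, and diamonds are wild-type library 1; the libraries run from low Rnpep and high Ctse in the knockouts to high Rnpep and low Ctse in wild type, with the diamonds between, while Ptpn7 stays between 4.47 and 6.09.

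The neighbours of the group were the 40 other measured genes whose lower coordinate lies in the window. In MZB, 8 of the 40 changed per cell, 7 upwards and 1 downwards, against 14.0% of all genes, and 8 after rescaling, 4 in each direction, against 5.26% of all genes. These were not the same 8 genes. Cd55 (log2 −0.51, limma, adjusted p = 0.0392), Zbed6 (−0.35, 0.0441) and Pfkfb2 (−0.34, 0.0488) fell after rescaling but did not pass per cell. In FoB, 1 of the 40 changed, Fcamr (2.5%, against 0.712% of all genes). Fcamr stood at 5.38 and 5.28 molecules per cell in the knockout MZB libraries, against 8.12, 11.99 and 16.3 in the wild-type MZB libraries, and fell by 1.09 on the log2 scale (limma, adjusted p = 2.92e-05). In FoB it stood at 1.14, 0.853 and 0.892 in the knockout libraries, against 3.68 and 5.004 in the wild-type ones, and fell by 1.87 (limma, adjusted p = 3.47e-11). The knockout libraries lay below the wild-type libraries in both cell types, as for Rnpep.

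The genes of the window that rose in knockout MZB did so by less than Ptprv and Ctse did. Csrp1, a LIM domain protein gene at 135.72 Mb, stood at 8.03 ± 0.762 in knockout and 3.48 ± 0.474 in wild-type MZB (SD, n = 2 and 3), 1.15 higher on the log2 scale (limma, adjusted p = 3.96e-06) and 0.81 higher after rescaling (adjusted p = 0.000499). Ppp1r12b, a regulatory subunit of myosin phosphatase, rose by 0.85 (limma, adjusted p = 0.000638). Fcmr, the IgM receptor, rose by 0.74 (limma, adjusted p = 0.0222), and Kdm5b, another histone demethylase, by 0.66 (adjusted p = 0.0114). Rab29, a small GTPase, rose by 0.66 (limma, adjusted p = 0.0123), Mapkapk2, a kinase downstream of p38, by 0.63 (adjusted p = 0.0233), and Btg2, an antiproliferative gene, by 0.57 (adjusted p = 0.0483), but these 3 did not pass after rescaling, with differences of 0.34, 0.30 and 0.24. Fcmr, Kdm5b, Rab29, Mapkapk2 and Btg2 did not pass without knockout MZB library 2 (limma, adjusted p from 0.16 to 0.578) or without wild-type MZB library 1 (0.0575 to 0.208). Without wild-type MZB library 3, Fcmr (adjusted p = 0.0661 in limma) and Mapkapk2 (0.0651) did not pass, without knockout MZB library 1 Rab29 (0.0713) and Btg2 (0.07) did not, and without knockout FoB library 1 Btg2 (0.0713) did not. In knockout FoB the differences of these 7 genes ran from −0.09 to 0.32, with adjusted p = 1 in limma for each. Ptpn7, at 0.57 in MZB, thus lay level with Btg2 and below 6 genes that were not picked.

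The genes directly beside the 4 did not pass in either cell type. In MZB the log2 differences were 0.51 for Srgap2 and 0.40 for Slc41a1 on either side of Ctse, 0.31 for Ube2t beside Ptprv, 0.41 for Arl8a between Ptpn7 and Rnpep, and 0.28 for Timm17a on the far side of Rnpep. Their adjusted p-values in limma ran from 0.0517 for Srgap2 to 0.234 for Timm17a, and Srgap2 passed when wild-type MZB library 2, knockout FoB library 3 or either wild-type FoB library was left out (0.0423 to 0.0487). The median log2 difference over all genes was 0.32. After rescaling, the differences of these 5 genes lay between −0.03 and 0.20 in MZB and between −0.25 and 0.16 in FoB. Measured genes with differences under 0.6 in size therefore lie between Rnpep and the pair of Ptprv and Ptpn7, and between that pair and Ctse.

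**Figure D4:**
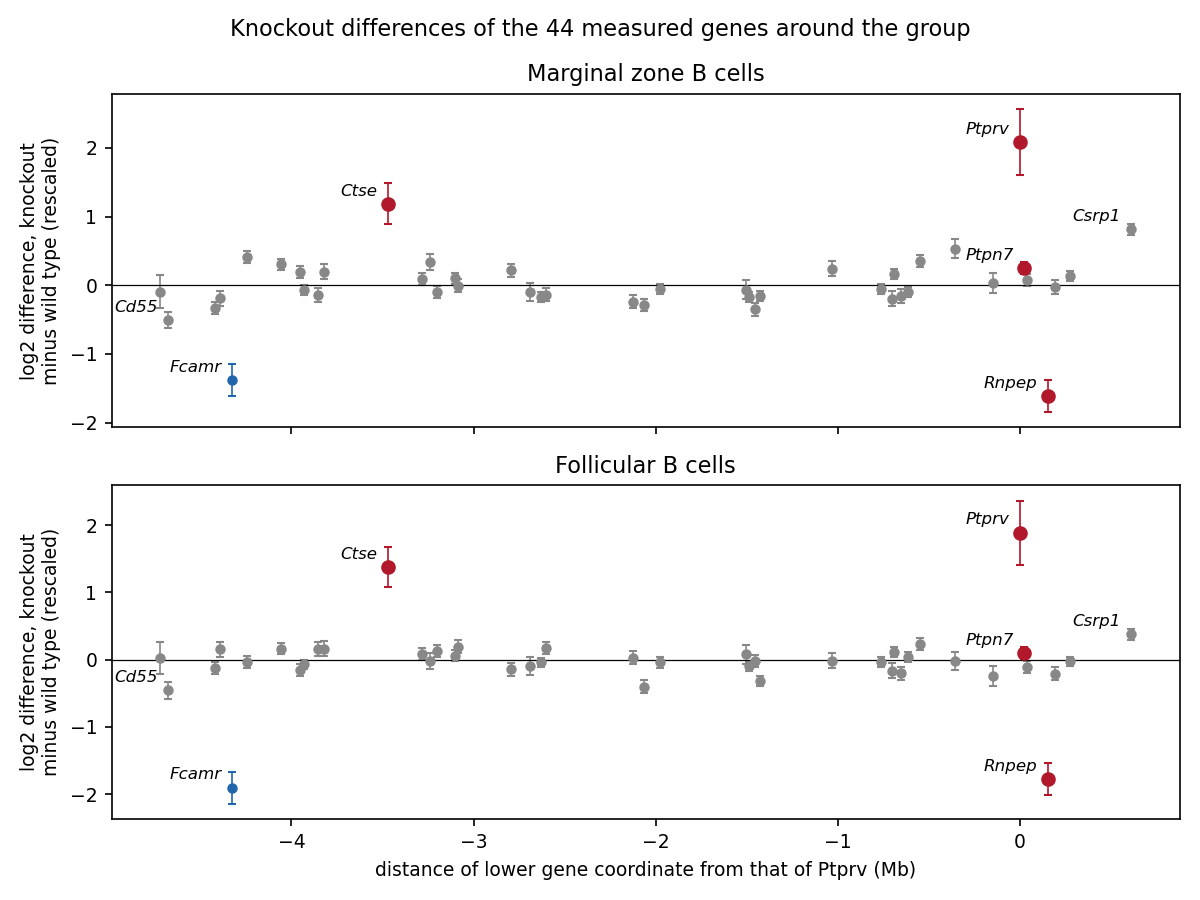
Log2 difference between knockout and wild type after rescaling (vertical axes) of the 44 measured genes of the window, against the distance of each gene's lower coordinate from that of Ptprv in Mb, in MZB (top) and FoB (bottom). Points are limma estimates with SE bars; Rnpep, Ptprv and Ctse (red) and Fcamr (blue) lie outside the band from −0.6 to 0.9 that holds Ptpn7 (red) and the remaining genes (grey).

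Relatives of the 4 genes in function were followed as lists, described by their counts. Of 36 protein tyrosine phosphatase genes other than Ptprv and Ptpn7, 16 were measured. Per cell 1 of these passed in MZB, where 14.0% of all genes did. Ptpn18 was the 1 that rose in knockout MZB, to 21.05 ± 0.719 in knockout against 14.2 ± 1.34 in wild-type MZB (limma, adjusted p = 0.0442; 0.195 after rescaling). It did not pass without knockout MZB library 1 or 2, wild-type MZB library 1 or 3, or knockout FoB library 1 (limma, adjusted p from 0.0642 to 0.431). In FoB 0 of the 16 passed per cell, where 0.712% of all genes did. Of the 16, 2 had an unadjusted p under 0.05 in FoB, and 2 passed with limma voom on the recovered reads. After rescaling, Ptpn22, a brake on antigen receptor signalling, fell in knockout cells by 0.27 in MZB (limma, adjusted p = 0.0392) and by 0.43 in FoB (adjusted p = 0.0103), while per cell its differences were 0.06 (adjusted p = 0.815) and −0.47 (adjusted p = 0.782). Both rescaled calls of Ptpn22 were lost without the first wild-type libraries, at −0.24 in MZB (limma, adjusted p = 0.214) and −0.40 in FoB (adjusted p = 0.27). The median of the list was 0.31 in MZB and −0.12 in FoB, beside 0.32 and −0.05 over all genes.

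Of the MAP kinase genes, which encode the kinds of protein that Ptpn7 acts on, 7 of 8 were measured and 3 rose in knockout MZB per cell, where 14.0% of all genes passed, 1288 of 9690 upwards. Mapk11, a p38 kinase, stood at 4.93 ± 0.919 in knockout and 2.74 ± 0.440 in wild-type MZB, 0.78 higher on the log2 scale (limma, adjusted p = 0.00306). In knockout FoB it fell after rescaling by 0.50 (limma, adjusted p = 0.0283), while per cell its difference of −0.55 did not pass (adjusted p = 0.369). Without the first wild-type libraries the rescaled FoB difference of Mapk11 was −0.51, which rests on 1 wild-type FoB library. Mapk3, which encodes ERK1, rose by 0.63 in MZB (limma, adjusted p = 0.018), and Mapk12, another p38 kinase, by 0.58 (adjusted p = 0.033). Neither passed after rescaling (limma, adjusted p = 0.0664 and 0.198) or by limma voom (0.0618 and 0.109). Mapk12 stood low, at 0.620 ± 0.233 in knockout and 0.314 ± 0.142 in wild-type MZB (SD), near the pseudocount of 0.3, with libraries that overlapped. Without knockout MZB library 2, none of Mapk11, Mapk3 and Mapk12 passed in MZB (limma, adjusted p = 0.289, 0.353 and 0.612), and without wild-type MZB library 1 Mapk3 and Mapk12 did not (0.113 and 0.22). Mapk3 also missed the threshold without knockout MZB library 1 (limma, adjusted p = 0.0506), and Mapk12 without wild-type MZB library 3 (0.0602). In FoB 0 of the 7 passed per cell, where 0.712% of all genes did, with 1 at an unadjusted p under 0.05 and 1 by limma voom. The median was 0.33 in MZB and −0.26 in FoB, beside 0.32 and −0.05 over all genes.

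Of the 9 M1 aminopeptidase genes other than Rnpep, 5 were measured and 0 passed in either cell type by limma per cell, after rescaling or by limma voom. Per cell 14.0% of all genes passed in MZB and 0.712% in FoB. Of the 5, 3 in MZB and 0 in FoB had an unadjusted p under 0.05 per cell. Rnpepl1, the closest relative of Rnpep by name, stood at 11.4 ± 1.04 molecules in knockout and 8.42 ± 1.38 in wild-type MZB, and Lta4h, which makes leukotriene B4, at 7.73 ± 1.10 and 5.29 ± 0.748. Lta4h missed the threshold narrowly (limma, adjusted p = 0.0501) and passed without wild-type MZB library 2, knockout FoB library 2 or 3, or either wild-type FoB library (0.0204 to 0.0464). Npepps passed when wild-type MZB library 2 was left out (adjusted p = 0.0426 by limma, against 0.125 with it). Of 11 other aminopeptidase genes, all measured, Dnpep rose in knockout MZB by 0.71 (limma, adjusted p = 0.00673) and by 0.40 after rescaling (adjusted p = 0.0477). Of 19 genes of cathepsins, aspartic proteases and their inhibitor, 14 were measured, and Cst3, the cathepsin inhibitor cystatin C and also a dendritic cell marker, rose in knockout MZB by 0.78 (limma, adjusted p = 0.00518) and by 0.45 after rescaling (adjusted p = 0.0251). Without knockout MZB library 2 neither Dnpep nor Cst3 passed (limma, adjusted p = 0.227 and 0.401), and Dnpep did not without wild-type MZB library 1 (0.0784). In MZB 1 of these 11 and 1 of these 14 passed per cell, where 14.0% of all genes did. In FoB 0 of these 11 and 0 of these 14 passed per cell, where 0.712% of all genes did. There, 1 and 0 had an unadjusted p under 0.05, and limma voom called 0 in both lists. The median of the cathepsin list was 0.37 in MZB and 0.00 in FoB, beside the same 0.32 and −0.05.

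Across the 10 libraries, the genes most like each member after rescaling were sought among 8307 other genes with a mean of at least 1 molecule per cell. Symbols that start with Gm or LOC or end in Rik, and genes without a RefSeq match, had been left out. Likeness to those genes was not looked up. The libraries form 4 groups, so likeness mostly follows differences between groups, and it is given as a description. Rnpep was most like Fcamr (Pearson r = 0.984, Spearman rho = 0.988 over 10 libraries), and then Wdr3 (r = 0.978) and Fuca1 (r = 0.959). Ctse was most like Gprasp1 (r = 0.958), Sidt1 (r = 0.921) and Slamf7 (r = 0.917). Ptprv was most like Apoe (r = 0.914), Zbtb21 (r = 0.908) and Proser3 (r = 0.885), and Ptpn7 most like Ints9 (r = 0.968), Capg (r = 0.938) and Ndrg3 (r = 0.927). Of these 12 genes, Fcamr is the only one that starts in the window.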

How the data were processed

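RNA was extracted with a Zymo kit and made into stranded poly(A) libraries with a KAPA kit, per the labels' protocols. Each gene has 1 signal value per library in the deposited table, which the authors name mRNA per cell. STAR and mm10 are named, per the submitters' processing notes; the counter, its strand setting, the annotation, the gene filter and the conversion to molecules were not given in the sources used here. Of 9690 Entrez identifiers, 9681 were matched to RefSeq positions (GRCm38.p6).

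Whole reads were recovered for 100% of genes (largest deviation 2.9e-05 against a tolerance of 0.1 reads). The median gene had 184 to 319 of them. The step per molecule follows exon length (Spearman rho = 0.818 across 9255 genes), so values act as levels per length.

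The tool limma 3.58.1 (R 4.3.3) was fitted to log2(value + 0.3), with an intensity trend, over 10 libraries and 4 groups, two-sided, Benjamini-Hochberg adjusted over all genes, threshold 0.05. The pseudocount understates changes of low genes. A floor of 0.3 in at least 2 libraries removed 0 genes. Rescaling divided libraries by a trimmed mean of log ratios (trims 0.3 and 0.05). The prior degrees of freedom were 86.9 per cell and 5 rescaled; errors shared by a library count once per gene, which can make p-values per cell too small. The steps were tested on simulated data. Tables and plots used Python 3.11.15, pandas 2.3.3 and matplotlib 3.10.9.

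The genes and lists were chosen with earlier results of these data known. Neighbours named are those changed per cell in a knockout in the direction of the rescaled difference, up to 8 per contrast, and the genes beside each member. Cd55, Zbed6 and Pfkfb2 are named in addition, as they passed after rescaling only. From each list, those shown were taken from the 3 with the smallest p. The place of library 1, the difference between knockout effects and the fits without the first wild-type libraries were chosen once the values were known.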

Additional observations from a re-analysis of the deposited data

Results flagged for a closer look

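Among the 40 neighbours, the knockout effect of Ppp1r12b differed between the cell types. Its level was 1.69 ± 0.0900 mRNA per cell in the knockout MZB and 0.808 ± 0.0755 in the wild-type MZB libraries (SD, n = 2 and 3), and 0.340 ± 0.0414 in the knockout FoB and 0.365 ± 0.0638 in the wild-type FoB libraries (SD, n = 3 and 2). The difference between the effects, MZB minus FoB, was 0.90 on the log2 scale (limma interaction, adjusted p = 0.0424). It was 1 of 40 neighbours (2.5%), where 2.34% of all genes passed, and without the first wild-type libraries 0 of the 40 passed per cell, with 3 at an unadjusted p under 0.05 in limma. After rescaling 0 of the 40 neighbours passed that test, with 8 at an unadjusted p under 0.05 in limma, and limma voom called 2.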

How the results depend on the processing

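Over 23 other settings, the knockout differences of Rnpep, Ptprv and Ctse kept their direction, from −1.85 to −1.16, 2.06 to 2.92 and 1.18 to 1.65 (log2) in MZB and from −2.20 to −1.09, 0.86 to 2.69 and 0.50 to 2.11 in FoB; Ptpn7 ran from 0.22 to 0.78 in MZB and from −0.15 to 0.25 in FoB. Values that moved beyond the spread of libraries were, in MZB, Rnpep with limma voom (−1.80) and rescaled without the first wild-type libraries (−1.85), Ptpn7 rescaled to a common level (0.25), to a common median (0.27), with voom (0.28) and rescaled without the first wild-type libraries (0.22), and Ctse rescaled (1.18), to a common median (1.199) and with voom (1.24). In FoB they were Rnpep with a pseudocount of 0.1 (−2.015) or 1 (−1.09), with voom (−2.20) and rescaled without the first wild-type libraries (−2.05), and Ptprv in that last setting (2.69).

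Between wild-type cell types, rescaling to a common level, to a common median and voom gave Ptprv 0.51, 0.49 and 0.76, Ptpn7 −0.10, −0.13 and −0.067, and Ctse −0.33, −0.36 and −0.30, none past the threshold (limma, adjusted p from 0.23 to 0.572). Rescaled without the first wild-type libraries, Ptpn7 had −0.027 and Ctse 0.13, and with library weights Ctse had 0.48 (adjusted p = 0.108). Between knockout cell types, rescaling to a common level and to a common median gave Ptprv 0.71 both times, Ptpn7 0.049 and 0.048 (0.12 with voom) and Ctse −0.53 both times (−0.47 with voom). Rescaled without the first wild-type libraries, Ptpn7 had 0.049, Ctse −0.53 (limma, adjusted p = 0.00111) and Ptprv 0.71 (adjusted p = 0.00373; 0.80 between wild-type cell types, adjusted p = 0.0103). Leaving out 1 library at a time gave Ptprv 0.26 to 1.87 and Ctse −0.31 to 1.30 between wild-type cell types. The cause of these shifts was not tested.

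The share of all genes past the threshold between knockout and wild-type MZB was 14.0% (1288 genes higher and 68 lower), and 21.4% with a pseudocount of 1, 5.26% rescaled (326 higher and 184 lower), 5.48% at a common median, 8.47% with library weights, 4.39% without the first wild-type libraries and 1.29% in that setting rescaled. Leaving out 1 library gave 2.81% (without knockout MZB library 2) to 28.8% (without wild-type MZB library 2). With the replicate number as a block the share was 5.45% of all genes, with 3 neighbours in MZB. Same-numbered libraries deviated with correlations of −0.19 to 0.187 (median 0.034), and differently numbered ones with −0.187 to 0.149 (median −0.008). In groups of 2 libraries the deviations mirror each other, so these values cannot decide whether the numbers pair the samples. Neighbours in MZB numbered 8, and 4 and 2 without the first wild-type libraries, per cell and rescaled, with 3 to 14 when 1 library was left out (3 without knockout MZB library 2 or wild-type MZB library 1, 14 without wild-type MZB library 2). In FoB the share of 0.712% became 1.32% with the compared groups alone, 1.1% with voom, 0.258% and 0.206% without the first wild-type libraries, per cell and rescaled, and 0.402 to 1.27% when 1 library was left out; the 1 neighbour became 4 with voom. Between wild-type cell types, 85.9% became 49.9, 50.4, 51.6 and 27.5% (rescaled, common median, voom, rescaled without the first wild-type libraries), and 34 neighbours became 22, 20 and 13 (the same without voom). Between knockout cell types, 97.7% became 35.2, 35.4, 37.9 and 29.9%, and 40 neighbours became 21, 21, 21 and 19.

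Of the neighbours named, Fcamr, Csrp1 and Ppp1r12b passed in knockout MZB whichever library was left out. Srgap2 passed with a pseudocount of 1 and without wild-type MZB library 2, knockout FoB library 3 or either wild-type FoB library (limma, adjusted p from 0.0198 to 0.0487). Ptpn22, at 0.06 per cell in MZB, had −0.27 rescaled, −0.25 at a common median and −0.26 with voom. Where 1 library remained in a group, its spread was taken as that of the other groups. Depth limits the low values: Ptprv rests on 37 reads in wild-type FoB library 2 and Rnpep on 29 in knockout FoB library 2.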
